A study of Mus musculus with 12 samples.

Results

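Cytosolic ribosomal protein genes were described as a group of 61 genes among the 19938 genes measured. They were chosen by symbol: a probe set had to be annotated with exactly 1 gene whose symbol follows the Rpl or Rps naming pattern or is Rplp0, Rplp1, Rplp2 or Rpsa, pseudogene symbols and the S6 kinases were dropped, and the brightest probe set over all 12 arrays was kept for each symbol. The rule itself uses no measured difference, but the group was chosen with earlier results of these data known. The group holds 30 genes of the large subunit, 21 of the small subunit, 3 of the P stalk and 7 paralogues or retrocopies whose symbols end in l or l1. A further 17 ribosomal protein symbols occurred only in probe sets shared with other genes and were not measured alone, among them Rpl11, Rpl13a, Rpl22l1, Rps24 and Rps27.

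The cells were macrophages grown from the bone marrow of C3H/HeN mice with recombinant IL-3, IL-6 and SCF and with L-cell conditioned medium as the source of M-CSF. Cells received no stimulus (0 min) or 100 ng/ml LPS from Escherichia coli, a bacterial outer membrane component sensed by Toll-like receptor 4, for 45 or 270 min. All cultures, the unstimulated ones included, received 200 µM 4-thiouridine during their last 35 min, a uridine analogue that enters RNA under synthesis and allows its capture on streptavidin beads after biotinylation. The captured fraction is called nascent RNA and the RNA before capture total RNA. The RNA input was 100 ng for nascent and 200 ng for total RNA. The 2 fractions at 3 times gave 6 groups of 2 Affymetrix Mouse Gene ST 1.0 arrays, 1 from each of 2 independent experiments. The ages and the number of animals behind each culture are not stated in the labels.

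The ribosome is built from ribosomal RNA and the proteins of a large and a small subunit, which are made in equal amounts from genes dispersed over the genome. Their promoters carry a run of pyrimidines at the start site, so that their mRNAs begin with a terminal oligopyrimidine (TOP) tract through which mTOR signalling and LARP1 control translation, and the mRNAs are known as abundant and long-lived. Ribosomal protein genes have left many processed pseudogenes, so that probes for 1 gene can also bind RNA of near-identical copies; each value below is uncertain in that respect.

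Values are log2 intensities, and each difference subtracts 1 group mean of 2 arrays from another on that scale and is given ± the standard error (SE) from limma. A gene was called at a Benjamini-Hochberg adjusted p below 0.05 over all 19938 genes. A level on an array is relative to the rest of that array. In such bulk samples, fewer cells of a type and less RNA per cell cannot be told apart. All 9 macrophage markers (Csf1r, Adgre1, Cd68 and others) were above background on all 12 arrays, background being the 95th percentile of 1027 olfactory receptor genes on each array. The log2 of their summed intensities, in which the brightest markers weigh most, was 14.58 and 14.76 at 0 min in nascent RNA. It was 14.63 and 14.98 at 45 min and 13.95 and 14.27 at 270 min, the last below the others without overlap. Over the total RNA arrays it was 14.98 to 15.44. Of 6 mast cell markers only Kit was above background on all 12 arrays. The mast cell sum, taken in the same way, moved with LPS time. It was 8.54 and 8.79 at 0 min against 9.35 and 9.75 at 270 min in nascent RNA. In total RNA it was 8.58 and 9.82 against 9.98 and 10.24. The part of either sum in the differences below was not tested. Of 6 neutrophil markers 0, of 3 measured T cell markers 1, of 3 B cell markers 0, of 3 erythroid markers 0 and of 4 fibroblast markers 1 were above background on all 12 arrays. The T cell marker was Cd3e and the fibroblast marker Col1a1, and the fibroblast marker Col3a1 was above background on 11 arrays. Ly6g, Cd3d, Cd4, Cd79a, Ms4a1 and Gata1 were among the markers never above it. The 2 arrays of a group correlated across genes at r = 0.9806 to 0.9891.

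Promoter windows of 8 members are shown because they belong to the genes with the clearest differences between times or fractions, or carry a pair of motifs found more often in the windows of the group than over all genes. Each window runs from 90 bases before to 25 after the annotated start and was taken from RefSeq (GRCm38.p6, the strand of the gene). Capitals mark matches on either strand to the pyrimidine motif CTTTCC, the ETS core CCGGAAG, the TATA box TATAAA and the GC box GGGCGG, so that CCGCCC is the GC box read from the other strand. Rpl24 and Rplp2 (the latter 0.65 ± 0.38, not called) were, with Rps20, the members with the largest positive difference in nascent RNA at 270 min, and Rpl10a and Rps15 were, with Rplp1, those with the largest fall. Rplp0 had the largest difference between the LPS times. Rpl12 was more abundant in nascent than in total RNA and was added after its values were seen. Rpl38 and Rps10 held the core bound by ETS family factors together with the pyrimidine motif.
Rpl24 (chr16:55966185-55966299, + strand): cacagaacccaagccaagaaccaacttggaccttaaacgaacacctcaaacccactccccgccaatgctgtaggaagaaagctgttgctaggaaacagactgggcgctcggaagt
Rplp2 (chr7:141447561-141447675, + strand): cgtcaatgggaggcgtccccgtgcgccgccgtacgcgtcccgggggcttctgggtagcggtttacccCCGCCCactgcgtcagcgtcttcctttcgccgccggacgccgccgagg
Rpl10a (chr17:28328381-28328495, + strand): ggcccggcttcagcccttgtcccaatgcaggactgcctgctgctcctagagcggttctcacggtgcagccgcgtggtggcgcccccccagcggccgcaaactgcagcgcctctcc
Rps15 (chr10:80292341-80292455, + strand): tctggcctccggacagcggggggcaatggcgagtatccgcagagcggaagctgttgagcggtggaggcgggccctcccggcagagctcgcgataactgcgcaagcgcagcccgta
Rplp0 (chr5:115559377-115559491, + strand): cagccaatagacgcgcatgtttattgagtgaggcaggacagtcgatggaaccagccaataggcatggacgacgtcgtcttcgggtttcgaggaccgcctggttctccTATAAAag
Rpl12 (chr2:32961622-32961736, + strand): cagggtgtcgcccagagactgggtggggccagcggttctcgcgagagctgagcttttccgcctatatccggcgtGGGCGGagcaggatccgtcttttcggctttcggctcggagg
Rpl38 (chr11:114668490-114668604, + strand): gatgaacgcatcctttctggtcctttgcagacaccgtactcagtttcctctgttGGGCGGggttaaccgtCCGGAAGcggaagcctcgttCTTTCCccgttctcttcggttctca
Rps10 (chr17:27635220-27635334, - strand): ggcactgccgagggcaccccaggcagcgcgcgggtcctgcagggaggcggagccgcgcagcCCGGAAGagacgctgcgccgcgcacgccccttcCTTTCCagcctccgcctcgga

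In Rpl38 the pyrimidine motif begins on the annotated start base, and in Rps10 it lies just after it. They were the only members with both CTTTCC and CCGGAAG in the shorter window shown. Over all members, 49 had an entry in the promoter table, with 58 windows reaching from 250 bases before to 50 after a start. The annotated start base was C or T in 25 of these 58 windows. CTTTCC was found in 46.55% of these windows on either strand, against 26.56% of 32851 windows of all genes. CCGGAAG was found in 34.48% against 8.86% of all windows, and GGGCGG, the GC box, in 56.90% against 35.66%. TATAAA was found in 10.34% against 13.62%, and AAGATGGC, the YY1 core, in 5.17% against 2.75%. The median G and C content of the windows was 57.0%, against 52.67% over all genes. These shares are a description of letters in a window. Of the 4 windows shown for the members with the largest rise or fall, only that of Rplp2 holds a motif searched.

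Ribosomal protein mRNAs were among the brightest on the total RNA arrays and clearly less so on the nascent arrays. The median member had a log2 intensity of 10.68 to 11.35 on the 6 total RNA arrays and of 9.33 to 9.79 on the 6 nascent arrays, and these ranges did not overlap. The median member ranked at the 96.14th to 98.20th percentile of all genes in total RNA and at the 88.16th to 91.08th in nascent RNA. Rpl10, a protein of the large subunit, was the brightest member, at 12.70 to 13.32 in total and 11.09 to 12.36 in nascent RNA. On all 12 arrays, 56 members were above background, and 2 never were: Rpl39l and Rpl3l, paralogues best known from testis and from muscle.

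In unstimulated macrophages the gene group stood lower in nascent than in total RNA of the same culture. The difference was tested on within-culture differences, since each nascent sample is a purified fraction of a total RNA sample. The RNA input differed with the fraction, at 100 ng for nascent and 200 ng for total RNA. Its part in the difference was not tested. Of 61 members, 50 were lower and 2 higher in nascent RNA by limma, while 8.42% of all genes were called lower and 7.58% higher. The median difference of the members was -1.29, at -1.38 in experiment 1 and -1.07 in experiment 2, against 0.01 over all genes. The 77 measured mitochondrial ribosomal protein genes, which build the ribosome of the mitochondrion, had a median of -0.20, with 13 lower and 2 higher.

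**Figure D1:**
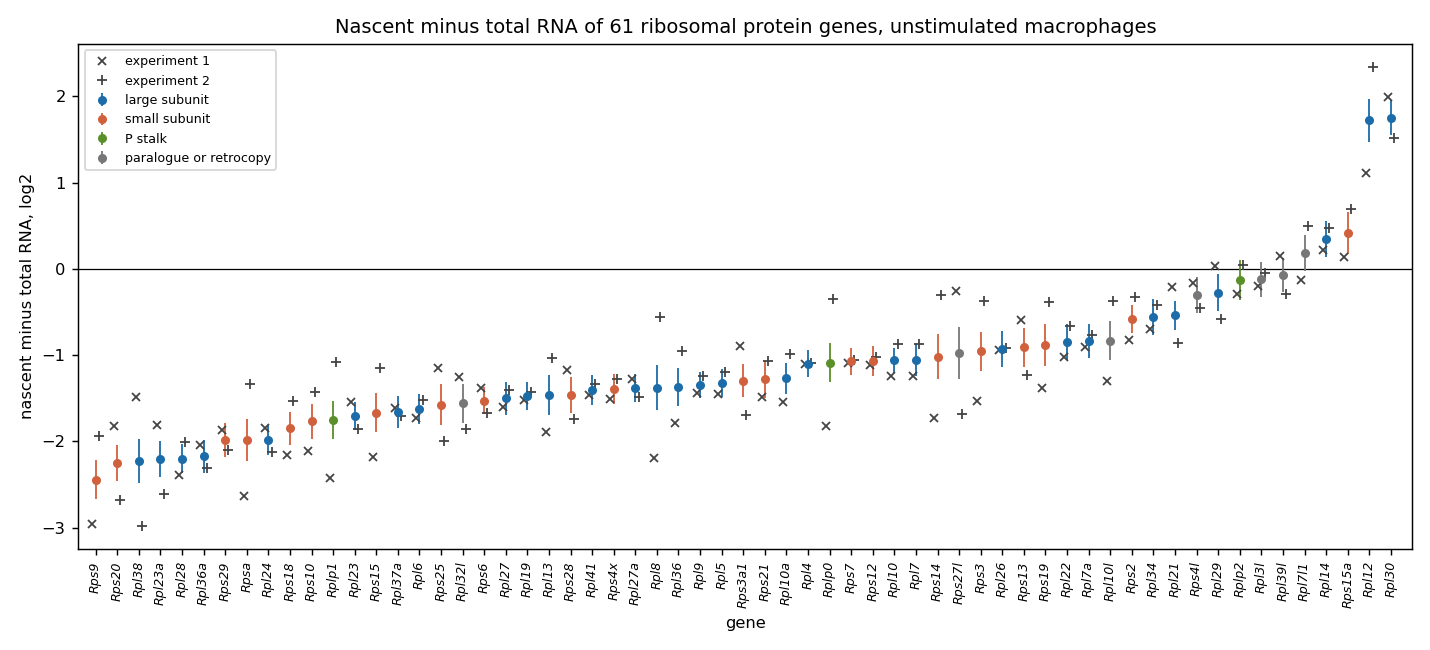
Nascent minus total RNA (log2 difference, vertical axis) of the 61 genes (horizontal axis, ordered by value) in unstimulated macrophages. Points with bars give the mean ± limma SE of 2 cultures, coloured by ribosomal part, and crosses and plus signs give experiments 1 and 2; most genes lie between -2.44 and -0.5, and Rpl12 and Rpl30 stand apart above 1.

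By part, 25 of 30 large subunit genes and 20 of 21 small subunit genes were called lower in nascent RNA. The largest difference was that of Rps9, a small subunit protein, with log2 intensities of 8.76 and 9.77 in nascent against 11.72 and 11.70 in total RNA. Both nascent values lay far below both total values, and the difference was -2.44 ± 0.23 (limma adjusted p = 6.82e-07). This rank holds for the brightest probe set only, since the second probe set of Rps9 gave -1.54. Rps20 followed with -2.25 ± 0.21, from 9.55 and 9.28 in nascent against 11.37 and 11.96 in total RNA. In both of these genes the nascent and total arrays did not overlap. The large subunit genes Rpl38 (-2.23 ± 0.26), Rpl23a (-2.21 ± 0.21), Rpl28 (-2.20 ± 0.17) and Rpl36a (-2.17 ± 0.20) came next. Their dimmer probe sets gave -1.875 to -1.608 for Rpl23a and -2.42 to -2.35 for Rpl38. Rpl38 is known for its role in translating Hox mRNAs, and its experiments differed in size, at -1.48 and -2.98. Rpl28 was the steadiest of these, at -2.39 and -2.01. The values of single experiments given here rest on 1 culture each.

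The 2 members that went the other way were both of the large subunit and both represented by 1 probe set. Rpl30, which also binds its own transcript in yeast, had 10.61 and 10.67 in nascent against 8.62 and 9.15 in total RNA, a difference of 1.75 ± 0.21 (limma adjusted p = 7.70e-06). Rpl12, a protein at the base of the P stalk, had 8.43 and 9.69 in nascent against 7.32 and 7.35 in total RNA, a difference of 1.72 ± 0.25 (limma adjusted p = 5.71e-05). In both genes the nascent arrays lay above the total arrays without overlap. Their total RNA levels were far under the median member. Whether the single probe set of either gene lies in an intron, over a snoRNA or on a pseudogene copy was not tested, and what nascent above total RNA measures depends on it. The sign held with LPS: Rpl30 was higher in nascent RNA by 2.20 and 1.75 at 45 min and by 1.77 and 1.56 at 270 min, and Rpl12 by 1.71 and 1.53 and then by 0.85 and 0.73.

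Over all 6 cultures, 51 members were lower in nascent RNA every time, 2 were higher every time and 8 had mixed signs. The mixed ones were Rpl14, Rpl29, Rpl39l, Rpl3l, Rpl7l1, Rplp2, Rps15a and Rps4l. The median member stood at -1.32 and -1.49 in the cultures with 45 min of LPS and at -1.15 and -1.13 in those with 270 min. Across the 61 members the 2 experiments correlated at Pearson r = 0.70 and Spearman rho = 0.56 in unstimulated cells; this is a description across genes, which share arrays and are not replicates.

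The number of probe sets per gene ran along with the difference between fractions. Of all genes 8.42% were called lower in nascent RNA and 7.58% higher. Of 39 members with several probe sets, 38 were called lower in nascent RNA and 0 higher, with a median of -1.46. Of 22 members with 1 probe set, 12 were called lower and 2 higher, with a median of -0.84. The single ones were also dimmer, with a median of 8.86 over the total RNA group means against 11.47. Its part in the result was not tested. Over all 217 probe sets of the group, 212 were lower in nascent RNA of unstimulated cells. Some probe sets of a gene hold identical values, as in Rps12 and Rpl41, so such counts partly repeat the same measurement. Within a gene the probe sets spanned a median range of 0.23, with the widest range, 1.02, in Rpsa.

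The small subunit exception was Rps15a, with 8.98 and 9.36 in nascent against 8.84 and 8.66 in total RNA, a difference of 0.42 ± 0.25 that was not called. Among the stalk genes, Rplp1 (-1.75 ± 0.22) and Rplp0 (-1.09 ± 0.23) were lower in nascent RNA and Rplp2 was not called (-0.13 ± 0.23). These 3 genes encode the acidic proteins P1 and P2 and their anchor P0, which recruit elongation factors to the ribosome. Of the 7 paralogues, Rpl32l (-1.55 ± 0.23), Rps27l (-0.97 ± 0.30) and Rpl10l (-0.83 ± 0.23) were called lower. Both unstimulated nascent values of Rpl32l (5.68 and 5.75) and Rpl10l (5.03 and 5.69) were below background, at 6.41 and 6.19 on these arrays, so the sizes of their differences are not settled. Without the pairing of cultures, 41 members were called lower and 2 higher (6.16% and 5.47% of all genes), and the calls lost were those of Rpl8, Rplp0, Rps14, Rps27l, Rps13, Rps19, Rpl10l, Rps2 and Rpl21.

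The question of whether LPS changes the making of ribosomal protein mRNAs was addressed in nascent RNA. At 45 min the group moved little as a whole while single genes rose or fell by up to 2.05-fold. Of 61 members, 1 was called higher and 5 lower, while 3.05% of all genes were called higher and 5.88% lower. The members' median was -0.20, at -0.10 and -0.30 in the 2 experiments, against 0.11 over all genes and -0.73 over the mitochondrial ribosomal protein genes, of which 33 of 77 were called lower.

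**Figure D2:**
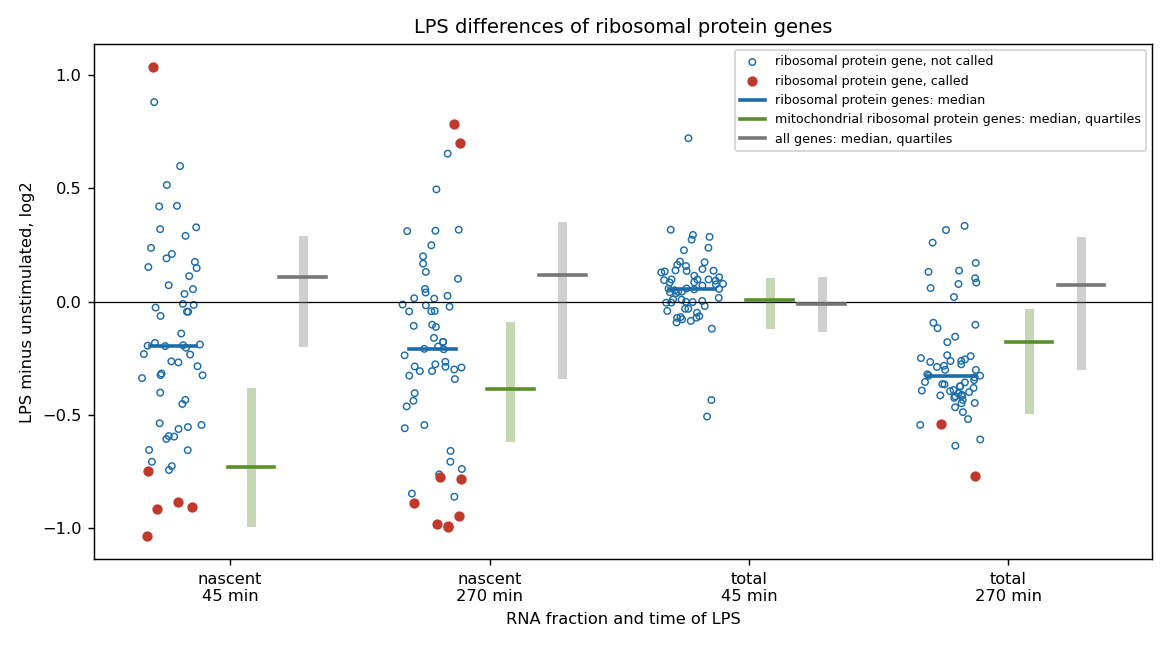
LPS minus unstimulated log2 difference (vertical axis) at 45 and 270 min in nascent and total RNA (horizontal axis). Each circle is 1 of 61 ribosomal protein genes, filled red if called at adjusted p below 0.05, and lines give medians, with quartile bars for mitochondrial ribosomal protein genes and all genes; 6, 9, 0 and 2 members were called, and their medians were -0.20, -0.21, 0.06 and -0.33.

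Rpl24, a large subunit protein at the bridge between the subunits, was the 1 member that rose at 45 min. Its nascent values were 9.66 and 9.84 without LPS and 10.87 and 10.69 at 45 min. The groups did not overlap, and the rise was 1.03 ± 0.19, or 2.05-fold (limma adjusted p = 0.00484). Each of its 3 probe sets was higher. At 270 min its nascent values were 10.46 and 10.44, still above both unstimulated arrays, with a rise of 0.70 ± 0.19 (adjusted p = 0.0184). In total RNA the gene had 11.50 and 11.96 at 0 min, 11.71 and 11.96 at 45 min and 11.94 and 11.80 at 270 min, and neither LPS difference there was called. Without the experiment 1 array of 45 min the rise was 0.94 and the adjusted p 0.0544. At 270 min the call was lost without the experiment 1 array of 0 min (0.61) or without either 270 min array (0.69 and 0.71).

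The 5 genes that fell in nascent RNA at 45 min came from both subunits. Rps15, a small subunit protein near the decoding site, went from 9.04 and 9.79 to 8.60 and 8.16, a difference of -1.03 ± 0.27 (limma adjusted p = 0.0311). Rps4x, the X-linked S4 protein, went from 10.04 and 10.57 to 9.09 and 9.69, a difference of -0.91 ± 0.26. Rps21 went from 8.23 and 8.74 to 7.71 and 7.45, a difference of -0.91 ± 0.26. In all of these the LPS arrays lay below both unstimulated arrays. Rpl10a, whose protein marks a subset of ribosomes, went from 10.26 and 11.10 to 9.79 and 9.80, a difference of -0.88 ± 0.24. Rpl14 went from 7.93 and 8.22 to 7.40 and 7.25, a difference of -0.75 ± 0.19 (adjusted p = 0.0244). Both again showed no overlap, as did 22 members in this direction and 22% of all genes, and the experiment 2 fall was the larger in every one of the 5 genes but Rps4x.

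These calls rest on few arrays. The members' median was -0.227 without the experiment 1 array of 45 min and -0.207 without the experiment 2 array of 45 min. It was -0.039 without the experiment 2 array of 0 min and -0.314 without the experiment 1 array of 0 min. All 5 falls lost their call without the experiment 2 array of 0 min (Rps15 -0.66, Rps4x -0.65, Rps21 -0.65, Rpl10a -0.46, Rpl14 -0.60). They also lost it without either 45 min array, with values from -0.61 to -1.25, and none changed sign. With quantile scaling Rpl14 was at -0.48 and Rps21 at -0.66 (adjusted p = 0.132 and 0.112), and with the mean of their probe sets Rps21 was at -0.83 and Rps15 at -0.77 (0.0704 and 0.216), none of them called. The fit that blocks on experiment called 1 member higher and 11 lower, the added falls being Rpl21, Rpl5, Rpl22, Rps18, Rpl36a and Rps7, against 4.23% and 9.22% of all genes.

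At 270 min in nascent RNA 2 members were called higher and 7 lower, while 8.87% of all genes were called higher and 14.2% lower. The median was -0.21, at -0.01 in experiment 1 and -0.35 in experiment 2, against 0.12 over all genes. The 2 experiments had the same sign in 34 of 61 members. Besides Rpl24, the gene that rose was Rps20, whose protein sits in the head of the small subunit. Its values were 9.55 and 9.28 at 0 min, 9.64 and 9.66 at 45 min and 10.22 and 10.18 at 270 min, and the late arrays lay above all others. The rise was 0.78 ± 0.23 (limma adjusted p = 0.0240), while total RNA gave -0.28 ± 0.23, not called. Without the experiment 2 array of 0 min the rise was 0.65, and without either 270 min array 0.77 and 0.80, none of them called.

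**Figure D3:**
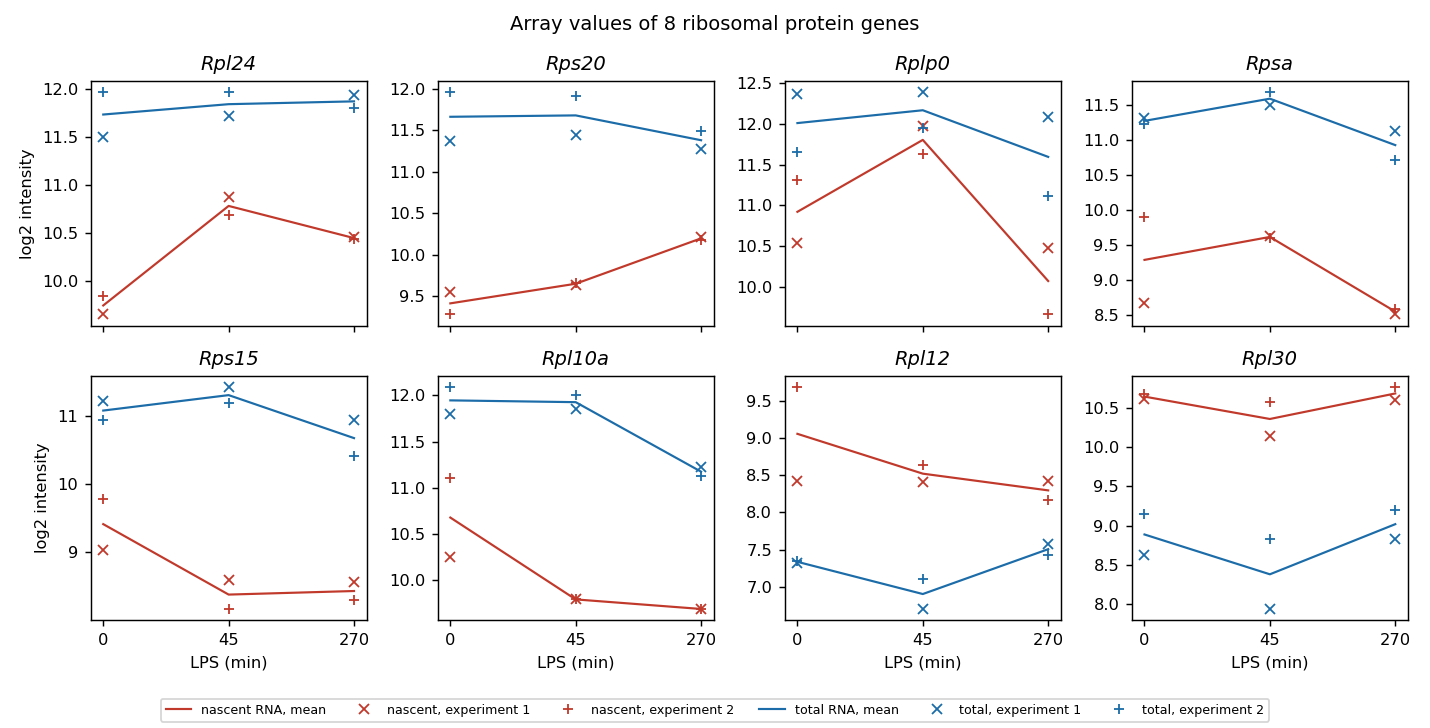
Log2 intensity (vertical axes, each panel with its own range) of 8 genes at 0, 45 and 270 min of LPS (horizontal axis, evenly spaced). Red is nascent and blue total RNA, crosses are experiment 1, plus signs experiment 2 and lines the means of 2 arrays; Rpl24 rises at 45 min and Rps20 at 270 min in nascent RNA, Rplp0 differs by -1.73 from 45 to 270 min, and Rpl12 and Rpl30 have nascent above total RNA throughout.

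Among the genes that fell by 270 min, Rplp1 went from 10.09 and 11.17 to 9.89 and 9.38, a difference of -0.99 ± 0.31 (limma adjusted p = 0.0315), of which experiment 1 gave -0.20 and experiment 2 -1.79. Rpl10a went to 9.69 on both arrays, a difference of -0.99 ± 0.24 (adjusted p = 0.00774). Rps15 went to 8.56 and 8.31, a difference of -0.98 ± 0.27. In each of the 3 genes the experiment 2 array of 0 min was the highest nascent value of its set. Rpl21, of the large subunit, went from 12.44 and 11.60 to 11.26 and 10.88, a difference of -0.95 ± 0.25, and here experiment 1 had the larger fall. Rps21 went to 7.73 and 7.47 (-0.89 ± 0.26), and Rps3, which is also a DNA repair endonuclease, from 9.92 and 10.77 to 9.54 and 9.58 (-0.78 ± 0.25). The seventh was Rpl10, outside the naming rule and given to complete the count, which joins the large subunit in the last step of its maturation, with -0.77 ± 0.21 from 11.81 and 12.36 to 11.09 and 11.54. Its experiments were close to each other, at -0.72 and -0.82. In all 7 the groups did not overlap, which held for 21 members in this direction and for 27.6% of all genes.

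Each of these falls lost its call when some 1 array was left out. Without the experiment 2 array of 0 min Rplp1 was at -0.45, Rpl10a at -0.57, Rps15 at -0.61, Rps21 at -0.63, Rps3 at -0.36 and Rpl10 at -0.49. Without the experiment 1 array of 0 min Rpl21 was at -0.53. Without the experiment 2 array of 270 min of the 7 only Rpl10 was called (the others stood at Rplp1 -0.73, Rpl10a -0.98, Rps15 -0.86, Rpl21 -0.76, Rps21 -0.76, Rps3 -0.80), and without the experiment 1 array of 270 min Rps21 (-1.02), Rps3 (-0.76) and Rpl10 (-0.54) were not. With the mean of probe sets Rps15 (-0.84, adjusted p = 0.108) and Rps21 (-0.69, 0.0781) were not called, nor was Rps21 with quantile scaling (-0.56, 0.11). The members' median was -0.319 without the experiment 1 array of 0 min and -0.125 without the experiment 2 array of 0 min. Without the 270 min arrays of experiments 1 and 2 it was -0.253 and -0.128. With the experiment as a block, 3 were called higher and 12 lower, against 10.8% and 17% of all genes. The block added falls of Rplp0, Rps9, Rps2, Rps28 and Rps7 and a rise of Rplp2.

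Between 45 and 270 min in nascent RNA, 1 member was called higher and 4 lower, while 6.74% of all genes were called higher and 10% lower. The median was 0.03. The largest difference of any member between times was that of Rplp0, the P stalk anchor often used as a reference gene. Its nascent values were 10.54 and 11.31 at 0 min, 11.97 and 11.63 at 45 min and 10.48 and 9.67 at 270 min. The 45 min arrays were the highest, and the difference from 45 to 270 min was -1.73 ± 0.37, or 3.31-fold (limma adjusted p = 0.00399). Against 0 min neither time was called (0.88 ± 0.37 at 45 min and -0.85 ± 0.37 at 270 min). In total RNA Rplp0 had 12.36 and 11.66, then 12.39 and 11.94, then 12.08 and 11.11, and no difference was called. The nascent call was lost without the experiment 1 array of 45 min (-1.56) or the experiment 2 array of 270 min (-1.32).

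Rpsa, the laminin receptor precursor of the small subunit, went from 9.63 and 9.60 at 45 min to 8.51 and 8.59 at 270 min (-1.07 ± 0.30), having been at 8.68 and 9.90 without LPS. Rpl10 (-0.88 ± 0.21) and Rpl27a (-0.72 ± 0.20) also fell. Rpl14 rose by 0.72 ± 0.19 to 7.95 and 8.16, having been at 7.93 and 8.22 before LPS. Rpsa lost its call without any 1 of the 4 arrays (-1.03 to -1.11), with quantile scaling (-0.93, adjusted p = 0.0554) and with the mean of its probe sets (-0.66, 0.18). Rpl10 lost it without the experiment 2 array of 45 min (-0.72) or the experiment 1 array of 270 min (-0.66), and Rpl27a without the experiment 1 array of 45 min (-0.56) or the experiment 2 array of 270 min (-0.53). Rpl14 lost it without either 45 min array (0.80 and 0.65) or the experiment 2 array of 270 min (0.62). The members' median without 1 array ran from -0.107 to 0.058. With the experiment as a block, 4 were called higher and 7 lower, against 8.61% and 12% of all genes.

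In total RNA at 45 min no member passed the test. By limma 0 members were called, 0 members had an unadjusted p below 0.05, and the fit with the experiment as a block called 0 as well. Over all genes 0.662% were called higher and 0.0201% lower, and 0.908% and 0.0853% in the blocked fit. At an unadjusted p below 0.05, 380 of all 19938 genes were higher and 228 lower. The members' median was 0.06, and single values ran from -0.51 for Rpl30 to 0.72 for Rps15a, each with an SE that leaves it uncalled (0.29 and 0.35).

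By 270 min most members stood slightly lower in total RNA. Of 61 members, 50 had a negative difference, 44 of them in both experiments. The median was -0.33, at -0.18 in experiment 1 and -0.45 in experiment 2, against 0.07 over all genes and -0.18 over the mitochondrial ribosomal protein genes. For 30 members both 270 min arrays lay below both unstimulated arrays, or 30 of 61, while 26.1% of all genes did so. Only 2 were called, both lower, while 7.02% of all genes were called higher and 12% lower. At an unadjusted p below 0.05, 7 members had a negative sign, and so did 3501 of all 19938 genes. Of the 217 probe sets, some of which repeat identical values of a gene, 203 were lower. The experiment 2 array of 270 min had the narrowest spread of all 12 arrays, with an interquartile range of 2.42 against 2.50 to 3.06 on the others. With quantile scaling within each fraction the median was -0.49 and 8 members were called lower, against 2083 of all 19938 genes.

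Rpl10a was the member with the largest fall in total RNA, from 11.80 and 12.09 to 11.22 and 11.13, a difference of -0.77 ± 0.24 (limma adjusted p = 0.0356). Rpl28 went from 12.43 on both arrays to 11.95 and 11.83, a difference of -0.54 ± 0.18 (adjusted p = 0.0493). Both had groups that did not overlap. Both lost their call without any 1 of the 4 arrays of 0 and 270 min, with values of -0.63 to -0.92 for Rpl10a and -0.48 to -0.60 for Rpl28. The members' median then ran from -0.383 to -0.217. With the mean of its probe sets Rpl28 was at -0.52 (adjusted p = 0.0653). With the experiment as a block, 10 were called lower, against 15% of all genes, the added ones being Rpl22, Rps4x, Rpl36a, Rpl4, Rpl23, Rpl27a, Rpl10 and Rpl9. All 10 were of the large subunit but Rps4x, while the median difference was -0.344 over large and -0.346 over small subunit genes.

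Between 45 and 270 min in total RNA 4 members were lower and 0 higher, against 11.5% and 6.64% of all genes, with a median of -0.39. They were Rpl10a (-0.75 ± 0.24), Rps12 (-0.66 ± 0.21), Rpl28 (-0.62 ± 0.18) and Rpl4 (-0.52 ± 0.16). All 21 small subunit genes and 26 of 30 large subunit genes had a negative sign. Rpl10a (-0.68 to -0.82) and Rpl28 (-0.56 to -0.68) lost their call without any 1 of the 4 arrays. Rps12 lost it without either 45 min array (-0.63 and -0.68), without the experiment 2 array of 270 min (-0.37) and with the mean of its probe sets (-0.63, adjusted p = 0.0577), and Rpl4 without the experiment 2 array of 45 min (-0.41) or either 270 min array (-0.56 and -0.49). The members' median without 1 array ran from -0.448 to -0.297. The blocked fit called Rpl30 higher and 13 lower, against 8.58% and 14.5% of all genes.

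Whether the nascent response differed from the total response was tested on the within-culture differences. No member was called by limma at 45 or 270 min; over all genes 0.476% were called higher and 0.567% lower at 45 min, and 0.12% and 0.722% at 270 min. At an unadjusted p below 0.05, the nascent response at 45 min was the higher one in 2 members and the lower one in 13, and at 270 min in 3 and 2. Of all 19938 genes, it was the higher one in 843 and the lower one in 1525 at 45 min, and in 542 and 869 at 270 min. Without the pairing of cultures 0 members were called as well, against 0.015% higher and 0% lower of all genes at 45 min and 0.01% and 0.236% at 270 min. The members' median of this difference was -0.20 at 45 min and 0.09 at 270 min. The widest values were those of Rps15 at 45 min, -1.26 ± 0.32, and of Rps20 at 270 min, 1.07 ± 0.29. The members' median without 1 culture ran from -0.332 to -0.125 at 45 min and from 0.075 to 0.188 at 270 min. Without 1 culture of 0 min, the lone one left is assumed to vary like the others. In that fit limma gave every gene of like intensity the same spread, so its calls are no test.

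For some members the gap between the 2 experiments in total RNA was larger than the difference between 270 min of LPS and none. In total RNA, 36 of 61 members kept 1 sign of the experiment difference at all 3 times, 19 higher and 17 lower in experiment 2, against 43.95% of all genes. Its mean over the 3 times exceeded 0.5 in 14 members, 8 higher and 6 lower in experiment 2. Rps27l, a paralogue of Rps27 that is induced by p53, was 8.28 in experiment 1 and 10.01 in experiment 2 at 0 min, 8.33 and 9.82 at 45 min, and 8.53 and 9.56 at 270 min. Experiment 2 was higher at every time, by 1.73, 1.49 and 1.03, while its nascent values differed by less. Rps14, whose loss marks the 5q- syndrome, was lower in experiment 2 by 1.10, 0.80 and 1.17. In 27 of 61 members the gap between experiments at 0 min was larger than the total RNA difference between 270 and 0 min, and in 34 it was smaller. The gap is between 2 single arrays and the LPS difference between means of 2 arrays, so the gap varies more. The share over all genes was not counted, so these counts say nothing particular to the members.

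**Figure D4:**
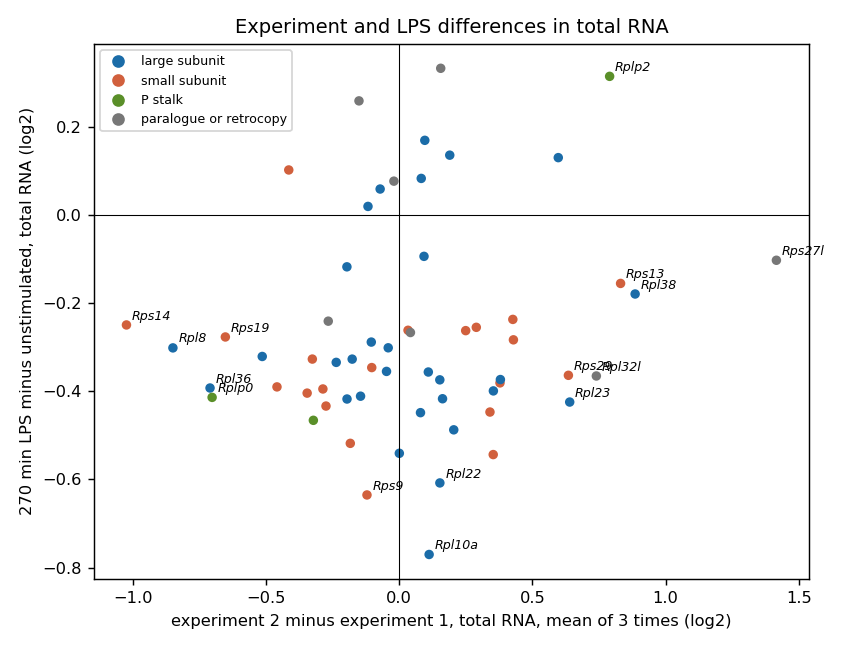
Each point is 1 of 61 genes, coloured by ribosomal part: experiment 2 minus experiment 1 in total RNA, mean of 3 times (horizontal axis, log2), against 270 min LPS minus unstimulated in total RNA (vertical axis, log2, mean of 2 experiments). The experiment differences run from -1.02 for Rps14 to above 1 for Rps27l, while most LPS differences lie between -0.6 and 0, and Rpl10a has the lowest, -0.77.

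Members with known roles outside the ribosome had the sign of the group between fractions. Of 6 measured, 6 were called lower in nascent than in total RNA of unstimulated cells, from -0.84 ± 0.21 for Rpl22 to -1.98 ± 0.24 for Rpsa. Of all genes 8.42% were called lower. Against unstimulated cells only the nascent Rps3 value at 270 min was called, and between 45 and 270 min only the nascent Rpsa value given above. In nascent RNA 14.2% of all genes were called lower at 270 min and 10% between the LPS times. Rpl5, which with 5S RNA and Rpl11 holds back Mdm2, was at -0.73 ± 0.26 in nascent RNA at 45 min and 0.01 ± 0.26 at 270 min, neither called; with the experiment as a block the 45 min value was called (limma adjusted p = 0.00351), as was that of Rpl22 (0.0219). Rps6, the target of the S6 kinases, was at 0.15 ± 0.22 and 0.25 ± 0.22, and Rpl26, which binds p53 mRNA, at -0.32 ± 0.25 and -0.29 ± 0.25. In total RNA at 270 min the 6 ran from -0.61 for Rpl22 to -0.24 for Rps6, with 0 called, or Rpl22 alone with the block (limma adjusted p = 0.0299). Of all genes 12% were called lower there, and 15% with the block.

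Of the genes mutated in Diamond-Blackfan anaemia or lost in 5q- syndrome, 5 of 11 listed were measured alone, and 0 were called against unstimulated cells. Of all genes 5.88% and 14.2% were called lower in nascent RNA at 45 and 270 min, and 0.0201% and 12% in total RNA. With the block, Rpl5 and Rps7 were called lower in nascent RNA at 45 min and Rps7 at 270 min, against 9.22% and 17% of all genes. In nascent RNA at 270 min Rpl5, Rps7, Rps10, Rps14 and Rps19 ran from -0.54 to 0.01, and in total RNA from -0.38 to -0.25. All 5 were called lower in nascent than in total RNA without LPS, from -0.88 for Rps19 to -1.77 for Rps10, against 8.42% of all genes. Among paralogues, 0 of 7 were called in nascent RNA at either time. Of all genes 3.05% were called higher and 5.88% lower at 45 min, and 8.87% and 14.2% at 270 min. Leaving aside Rpl39l and Rpl3l, which were at background, the values ran from -0.56 for Rpl7l1 to 0.32 for Rps4l at 45 min and from -0.46 to 0.49 for the same genes at 270 min. Fau, which encodes the ribosomal protein S30 fused to a ubiquitin-like domain and is no member by symbol, was at -1.32 ± 0.18 in nascent over total RNA and at -0.52 ± 0.22 in nascent RNA at 270 min, of which the first was called.

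Translation factors with TOP mRNAs showed the same side of the fraction difference. Of 18 measured, 11 were lower and 1 higher in nascent than in total RNA of unstimulated cells, against 8.42% and 7.58% of all genes, with a median of -1.001. The largest were the eIF3 subunits Eif3f (-2.14 ± 0.22), Eif3h (-1.64 ± 0.21) and Eif3k (-1.37 ± 0.23), and the 1 higher was the helicase Eif4a2 (1.17 ± 0.17). With LPS, Pabpc1, the poly(A) binding protein, rose in nascent RNA by 0.73 ± 0.18 at 45 min and 0.60 ± 0.18 at 270 min. Eif3k fell in nascent RNA at 270 min (-0.87 ± 0.28), and Eif4b, an activator of eIF4A, fell in total RNA (-1.19 ± 0.22). Of 7 snoRNA host genes measured alone, 2 were higher in nascent RNA without LPS, Gas5 (1.37 ± 0.22) and Snhg5 (1.35 ± 0.20), and 2 were lower, Eef2 and Ncl; the same shares of all genes apply.

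Ribosome assembly factors had calls in both directions. Of 39 biogenesis factors, 2 rose and 7 fell in nascent RNA at 45 min, 3 rose and 6 fell at 270 min, and 3 rose and 2 fell in total RNA at 270 min. Of all genes 3.05% rose and 5.88% fell in the first of these comparisons, 8.87% and 14.2% in the second and 7.02% and 12% in the third. The medians of the 39 were -0.32, -0.26 and 0.10. Ltv1, an export factor of the small subunit, rose by 1.62 ± 0.23 at 45 min, and Rrs1, which brings 5S RNA into the large subunit, by 2.17 ± 0.54 at 270 min. Gnl3, nucleostemin, fell (-1.42 ± 0.23 at 270 min), as did Dkc1, the pseudouridine synthase of rRNA (-1.33 ± 0.18). Among 15 chaperones and late maturation factors, 1 was called higher and 3 lower in the 45 min nascent comparison, with a median of -0.42. The 270 min nascent comparison gave 1 higher and 1 lower (median -0.07), and the 270 min total comparison 1 and 0 (median -0.05). The shares of all genes given above for these comparisons apply here too. The gene called higher each time was Sbds, which releases eIF6 from the large subunit. Its nascent difference was 1.74 ± 0.18 at 45 min and 2.08 ± 0.18 at 270 min. Its total RNA difference at 270 min was 2.19 ± 0.18. Of 15 RNA polymerase I genes, 1 rose and 3 fell in nascent RNA at 270 min, against 8.87% and 14.2% of all genes: the initiation factor Rrn3 (0.85 ± 0.21) rose, and the largest subunit Polr1a (-1.71 ± 0.21) fell most, with a median of -0.22 over the 15.

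Of 19 measured regulators of TOP mRNAs and ribosomal protein transcription, 5 rose and 3 fell in total RNA at 270 min, against 7.02% and 12% of all genes, with a median of -0.13. Larp1, which binds the TOP cap, rose by 1.82 ± 0.23 in nascent and 1.73 ± 0.23 in total RNA. Myc, a known activator of ribosome synthesis, rose in nascent RNA by 2.18 ± 0.31 at 45 min and 1.54 ± 0.31 at 270 min. The mTOR inhibitor Tsc1 fell in nascent RNA at 270 min (-1.09 ± 0.19) and in total RNA (-1.10 ± 0.19), and the translational repressor Eif4ebp2 likewise (-1.25 ± 0.28 and -1.60 ± 0.28).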

How the data were processed

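The 12 arrays were scanned on Affymetrix Mouse Gene ST 1.0 chips. The authors deposited 1 linear intensity per probe set. The submitters' processing notes name RMA and the Affymetrix Expression Console. Their versions, and the arrays that entered 1 normalisation, are not given in these sources. RMA compresses differences of dim genes, and quantile scaling removes any change common to the whole array. Log2 was taken of the deposited intensities, with no filter on level. Of 35557 probe sets, 21789 had 1 symbol, 1621 several and 12147 none; 21698 matched RefSeq gene IDs, which changed 0 symbols. Where a symbol had several probe sets the one with the highest mean was used, for all 19938 genes.

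Tests used R 4.3.3 and limma 3.58.1 (eBayes with an intensity trend), with Benjamini-Hochberg adjustment over all genes. Times were compared in 1 fit of 6 group means to 12 arrays (residual degrees of freedom 6, prior 7.38), and fractions in a fit of 6 within-culture differences (3 and 16.51). The fits were also run on simulated data in which arrays varied independently and differences were planted in nascent RNA at 270 min only. Those data hold no correlation within an experiment, so they cannot show how the fits behave with it. Python 3.11.15 with pandas 2.3.3, numpy 2.4.6 and matplotlib 3.10.9 made the tables and figures. The labels describe 2 independent experiments, so the experiment number pairs the samples. Deviations from the group means correlated between arrays of 1 experiment at -0.05 to 0.32 among nascent groups and 0.33 to 0.64 among total RNA groups. Over all 15 pairs of groups they ran from -0.29 to 0.64, with 10 over 0.1. The 5 others were the pairs of unstimulated nascent RNA with each other group. It was at -0.29 with total RNA at 270 min and -0.05 with total RNA of its own cultures. The values of these arrays therefore do not show the pairing, and they enter every nascent difference from 0 min and the comparison of fractions. The fit with the experiment as a block is given beside the results it changes. The number of 2 arrays per group limits the precision, and the intervals cover only the spread between these samples. Named genes were, in each comparison, the up to 6 called members with the largest rise and fall and the same sign in both experiments, the members of fixed lists, and up to 3 called members of each pathway list per direction. The members, lists and this rule were chosen with earlier results of these data known. Protein sequences were not used here. The alternatives tried were the replicate block, quantile scaling within each fraction, leaving out dim genes, a pseudocount of 16, no intensity trend, the mean of a gene's probe sets, and leaving out each array or culture.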

Additional observations from a re-analysis of the deposited data

How the results depend on the processing

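With 2 arrays per group, none of the 25 calls between times taken by the naming rule held in every fit that left out 1 of its arrays, where the lone array left is assumed to vary like the other groups; none of these 25 changed sign in an alternative. For the calls between fractions, leaving out 1 culture leaves 2 residual degrees of freedom and, for the cultures of 0 and 270 min, no gene-specific spread, so those fits are no test of stability. With the replicate block the members called were 12 in nascent RNA at 45 min (6 without it), 15 at 270 min (9), 11 between 45 and 270 min (5), 10 in total RNA at 270 min (2) and 14 between 45 and 270 min (4); it changed no other count by over 1.5 times. Leaving out dim genes gave 8 calls in nascent RNA between 45 and 270 min and 4 in total RNA at 270 min, where quantile scaling gave 8 and the mean of probe sets 1. Over all genes, leaving out dim genes called 3338 and 3625 of 9969 in these comparisons. Quantile scaling called 3550 of 19938 genes in total RNA at 270 min. The median in total RNA at 45 min, 0.057, was -0.01 with quantile scaling and 0.082 with the mean of probe sets, and the median response difference at 270 min, 0.086, was 0.206 with quantile scaling. Leaving out 1 array gave 0 to 12 members called in nascent RNA at 45 min (medians -0.314 to -0.039), 1 to 12 at 270 min (-0.319 to -0.125), 1 to 4 between them (-0.107 to 0.058), 0 in total RNA at 45 min (-0.023 to 0.118), 0 to 1 at 270 min (-0.383 to -0.217) and 0 to 3 between them (-0.448 to -0.297). Leaving out 1 culture gave 44 to 49 called for nascent over total RNA (-1.383 to -1.074), 0 to 18 for the response difference at 45 min (-0.332 to -0.125) and 0 to 10 at 270 min (0.075 to 0.188). The pseudocount and the fit with no intensity trend moved no count by over 1.5 times. The cause of these changes was not tested. The signal of Rpl39l and Rpl3l was at background, so their values carry no order.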
